A study of Homo sapiens with 24 samples.

Results

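Total RNA of cells labelled A2058 and depleted of LSM14A was compared with and without hydroxyurea (HU). A2058 is a human melanoma cell line, siLSM14A is a transfected siRNA against LSM14A given at 20 nM, and HU was added at 10 mM for 2 h, while the untreated cultures are called NT. The comparison held 6 of the 24 libraries of the series, 3 siLSM14A HU and 3 siLSM14A NT, each from its own culture, and was made over the 12497 protein-coding genes that passed a filter on low counts, of 20345 listed gene IDs. The same contrast in cells with a control siRNA (siCTRL), which shares no library with it, and in the polysomal RNA of the siLSM14A cultures, stands beside it where it differs. Cultures of all groups received cycloheximide for 15 min before collection. The depletion was transient and made in a single cell line, and the protein left in the cells was not measured in these data.

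HU blocks ribonucleotide reductase, the enzyme that makes the deoxyribonucleotides of DNA, so replication forks slow and the ATR and CHEK1 kinases are activated. Over hours, cells can answer with p53 target genes and with changes in the genes of nucleotide supply and DNA repair. LSM14A, the human relative of yeast Scd6, is an RNA-binding protein of P-bodies that acts with the decapping factors and represses the translation of bound mRNAs. Total RNA shows whether the amount of an mRNA differs, and not how well it is translated.

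LSM14A itself was measured first. In CPM (counts scaled to libraries of a common size, here over the 12 total RNA libraries together), LSM14A stood at 8.21, 9.33 and 7.80 CPM in the siLSM14A NT libraries and at 7.40, 8.58 and 6.88 CPM in the siLSM14A HU libraries. In siCTRL cells it stood at 91.7, 95.9 and 96.8 CPM without HU and at 90.7, 102.6 and 97.2 CPM with it. All 6 siLSM14A libraries lay far below all 6 siCTRL libraries, and within siLSM14A cells the log2 fold change of LSM14A with HU was -0.15 (95% interval -0.42 to 0.11, unadjusted p = 0.224 by edgeR's quasi-likelihood test). Its paralog LSM14B stood between 39.5 and 42.2 CPM in the 6 libraries, with a log2 fold change of 0.04. All 16 listed melanocytic genes passed the filter, at a median level of 107 CPM. So did 14 of 15 listed genes of dedifferentiated melanoma, at a median of 27.8 CPM. Of 13 matched markers of other cell types 5 passed, at a median of 2.32 CPM, and 3 had no counts in any of the 6 libraries.

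The libraries held 27843461 to 40645263 counts. NT replicate 3 stood apart from the other untreated libraries, with a chi-square per gene of 18.5 and 20.04 against NT replicates 1 and 2, compared with 6.10 between those 2 and 10.05 to 13.8 between the HU libraries. The replicate numbers of the untreated siLSM14A libraries also went against those of the polysomal libraries. Over 11225 genes, the deviation of total RNA NT replicate 3 from its group mean correlated at 0.58 with that of polysomal NT replicate 1 and at -0.32 with that of polysomal NT replicate 3. Total RNA NT replicate 1 correlated at 0.35 with polysomal NT replicate 3 and at -0.51 with polysomal NT replicate 1. In the siLSM14A HU cultures, each total RNA library correlated best with the polysomal library of its own number. These correlations are over genes, which share each library's depth and base composition. The groups do not depend on the replicate numbers.

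With all 6 libraries, edgeR's quasi-likelihood test gave no gene an adjusted p under 0.05, the smallest being 0.855. DESeq2 also called 0 genes, at a smallest adjusted p of 0.390. Unadjusted, 650 genes (5.2% of those tested) had a p under 0.05, of which 201 (1.61%) were higher with HU and 449 (3.59%) lower, and DESeq2 gave 515. The log2 fold changes of the middle 98% of genes ran from -0.44 to 0.40, and 9 genes had a change of more than 1. The 95% interval of the change lay within 1 log2 unit of no change for 12023 genes (96.2%), and within 1.5-fold for 10955 genes (87.7%). Precision followed depth. For 7046 genes of 10 to 100 CPM the median half-width of the interval was 0.16, against 0.77 for 872 genes under 1 CPM, of which 49.7% had an interval inside 1 log2 unit.

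Without NT replicate 3, however, 6 genes passed an adjusted p of 0.05 (0.0479% of 12525 tested), namely CCN1, CCN2, JUN and DEPP1, which were higher with HU, and CLK1 and DDIT4, which were lower. These genes were singled out after their values were seen, apart from CLK1, which the naming rule also chose. Leaving out any of the other 5 libraries gave 0 such genes. HU replicate 1, which stayed in the fit without NT replicate 3, was the highest HU library for CCN1, CCN2, JUN and DEPP1. It was the lowest HU library for CLK1 and DDIT4. Among the NT libraries, its deviation from its group correlated best with that of NT replicate 3 (0.29 over genes). CCN1 and CCN2 encode secreted matrix-associated proteins that are classical targets of YAP and TEAD factors, JUN is a subunit of the AP-1 transcription factor, and DEPP1 is a target of FOXO factors. CLK1 is a kinase that phosphorylates SR splicing factors, and DDIT4 (REDD1) restrains mTORC1.

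CCN1 (chromosome 1, 86046444 to 86050272, hg19, plus strand) stood at 73.9 and 74.1 CPM in NT replicates 1 and 2 and at 231 CPM in NT replicate 3, against 204, 140 and 152 CPM with HU. NT replicate 3 was thus the highest of the 6 libraries, and the other 2 untreated libraries were the lowest. With all libraries the log2 fold change was 0.38 (SE 0.34, unadjusted p = 0.276), and without NT replicate 3 it was 1.16 (SE 0.12, adjusted p = 0.000249, edgeR).

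CCN2 (chromosome 6, 132269316 to 132272512, minus strand) had the same order, with 39.4, 40.4 and 99.8 CPM in the NT libraries and 90.1, 70.0 and 72.1 CPM with HU. Its log2 fold change was 0.36 (SE 0.27) with all libraries and 0.96 (SE 0.09, adjusted p = 0.00023, edgeR) without NT replicate 3. JUN stood at 17.1, 16.2 and 40.0 CPM without HU and at 38.5, 24.2 and 29.1 CPM with it, and DEPP1 at 2.47, 2.06 and 7.63 CPM against 7.33, 5.50 and 5.86 CPM. In both genes NT replicate 3 was again above every HU library. Without it, the log2 fold change was 0.88 for JUN (SE 0.14, adjusted p = 0.0446) and 1.47 for DEPP1 (SE 0.18, adjusted p = 0.00202).

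The genes of the opposite direction mirrored this order. CLK1 (chromosome 2, 201717732 to 201729414, minus strand) stood at 47.6, 46.3 and 27.4 CPM in the NT libraries and at 22.3, 26.1 and 26.03 CPM with HU, so that the HU libraries lay below all NT libraries and NT replicate 3 lay next to them. DDIT4 (chromosome 10, 74033678 to 74035794, plus strand) stood at 457, 441 and 185 CPM in the NT libraries and at 241, 290 and 273 CPM with HU, with NT replicate 3 below all of the others. With all libraries the log2 fold change was -0.70 for CLK1 (SE 0.16, unadjusted p = 0.00092, adjusted p = 0.855) and -0.43 for DDIT4 (SE 0.24, unadjusted p = 0.095). Without NT replicate 3 it was -0.92 for CLK1 (SE 0.08, adjusted p = 0.000101) and -0.74 for DDIT4 (SE 0.07, adjusted p = 0.000151).

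**Figure D1:**
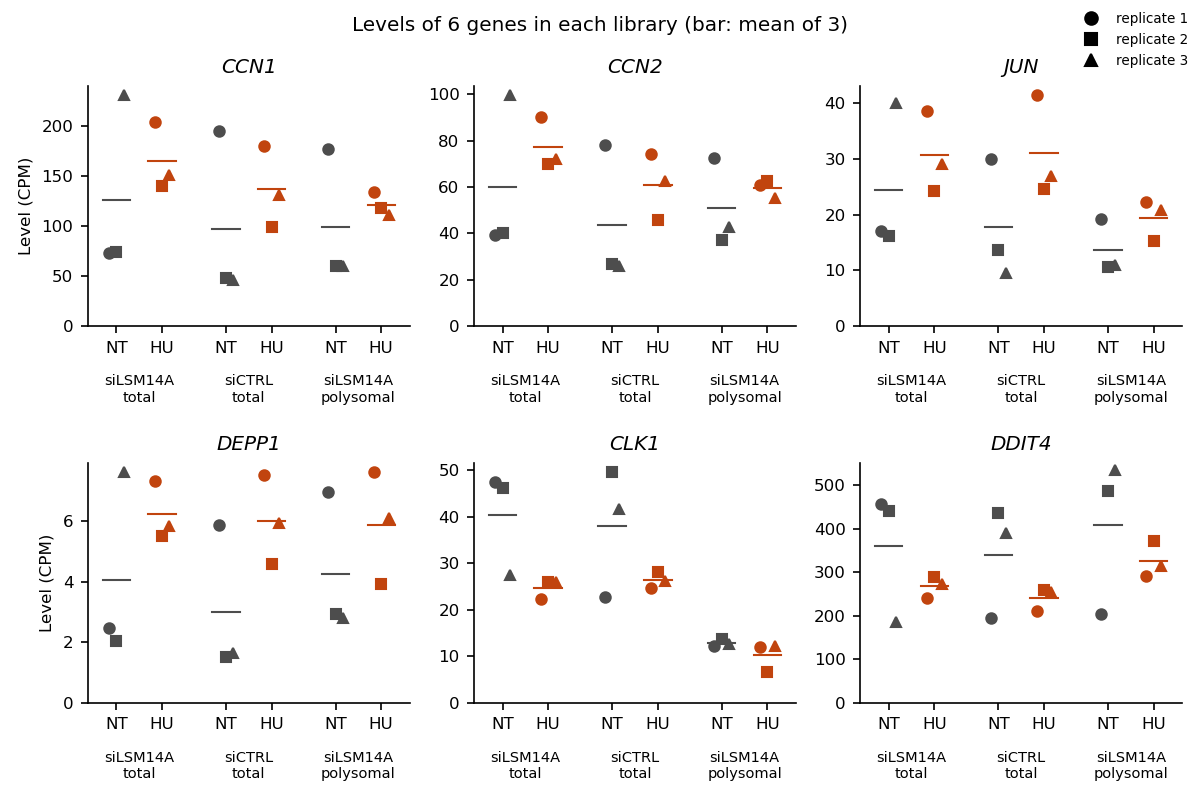
Levels of CCN1, CCN2, JUN, DEPP1, CLK1 and DDIT4 in CPM (vertical axis, from 0) in the NT and HU libraries of siLSM14A total RNA, siCTRL total RNA and siLSM14A polysomal RNA, each point a library shaped by its replicate number and each bar the mean of 3. In each set of total RNA libraries, 1 untreated library (replicate 3 with siLSM14A, replicate 1 with siCTRL) lies within, next to or beyond the range of the HU libraries, as CCN1 shows at 231 and 196 CPM.

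The siCTRL libraries, which are other cultures, showed the same 6 genes when 1 untreated library was left out. With all 6 siCTRL libraries no gene passed an adjusted p of 0.05 in edgeR, while DESeq2 called 1, SOCS3 (adjusted p = 0.0303). Unadjusted, edgeR gave 180 genes (1.44%), 99 (0.792%) higher and 81 (0.648%) lower. Without siCTRL NT replicate 1 the same 6 genes and no others passed (0.0475% of 12628 tested). Leaving out any other siCTRL library gave 0 genes. CCN1 stood at 196, 48.8 and 46.4 CPM in the siCTRL NT libraries and at 181, 99.8 and 131 CPM with HU, and DDIT4 at 196, 435 and 391 CPM against 210, 258 and 255 CPM. Here the untreated library at the level of the HU libraries was replicate 1. Between the siCTRL NT and HU libraries numbered 1, CCN1, CCN2 (78.0 and 74.0 CPM), CLK1 (22.7 and 24.7 CPM) and DDIT4 did not move in the direction called. JUN (29.9 and 41.4 CPM) and DEPP1 (5.87 and 7.52 CPM) did. The deviations of siLSM14A NT replicate 3 and siCTRL NT replicate 1 from their groups correlated at 0.63 over genes. What these 2 libraries share was not tested, and their numbers differ.

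Because same-numbered siCTRL libraries deviated together (correlations of 0.38, 0.45 and 0.30), the siCTRL fit was also made with the replicate number as a block, and 15 genes then passed (0.12% of 12506). They included all 6 genes above, and beside them the immediate early and stress genes SOCS3, PPP1R15A, NFKBIA, EGR1, FOS and CXCL8, which were higher with HU, and SYNM, NES and ZKSCAN8, which were lower. Of these 15 genes, 14 had the same sign in siLSM14A cells, and 4 had an unadjusted p under 0.05 there, beside 5.2% of all genes. Without NT replicate 3 the number was 9, but these include the 6 genes above, which were picked because they passed in that fit. The 9 can therefore not be read against the 5.05% of all genes. The exception was CXCL8, an inflammatory chemokine, at -0.02 in siLSM14A cells. The share of same signs over all genes was not counted. Over 12413 genes the 2 sets of changes, fitted without the block, correlated at 0.06. None of the 15 differed between the siRNAs at an unadjusted p under 0.05 in the interaction test, in which the smallest p was 0.138 for SOCS3. For CCN1 the 95% interval of that difference ran from -1.56 to 1.31 log2 units, and without siLSM14A NT replicate 3 and siCTRL NT replicate 1 the difference was -0.36 (-0.91 to 0.18). The data neither set the 2 effects apart nor showed them to be alike.

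SOCS3, a feedback inhibitor of cytokine signalling, stood at 20.3, 16.8 and 22.9 CPM in siLSM14A NT libraries and at 27.02, 22.3 and 23.1 CPM with HU, a log2 fold change of 0.27 (95% interval 0.03 to 0.51). NFKBIA, the inhibitor that NF-kB itself induces, stood at 23.1, 23.5 and 34.04 CPM against 34.5, 29.7 and 31.6 CPM, with NT replicate 3 within the HU libraries. PPP1R15A (GADD34), which recruits the phosphatase that ends the integrated stress response, stood at 76.9, 80.9 and 86.8 CPM against 97.9, 96.0 and 89.1 CPM, and its groups did not overlap.

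The promoters of the 6 genes were searched for 3 short words on both strands. The RefSeq table of windows from 250 bases before to 50 bases after each start site (GRCh38.p14) held 5 of the 6 genes. The TEAD word GGAATG was in the windows of CCN2 and DEPP1, and in 14.1% of all 27305 windows. The AP-1 word TGANTCA (in 7.76% of all windows) and the cyclic AMP response word TGACGTCA (in 1.98%) were in none of the 5. The stretches with the TEAD word in capitals, on either strand, are shown because CCN2 carried it more than once, and the lower-case ggaatg within its second stretch is a further match.
CCN2, chr6:131951524-131951553, minus strand: ttttcagacggaGGAATGctgagtgtcaag
CCN2, chr6:131951459-131951488, minus strand: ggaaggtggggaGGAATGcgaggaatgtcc
DEPP1, chr10:44978967-44978996, minus strand: ctgcagcgtaaaCATTCCccagcctcctac
A match describes these letters only, and no binding was measured.

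The genes that HU acts on most directly differed little at 2 h. RRM1, the large subunit of ribonucleotide reductase, stood at 177, 172 and 211 CPM in NT libraries and at 179, 166 and 184 CPM with HU, which overlapped, with a log2 fold change of -0.08 (95% interval -0.25 to 0.09). RRM2, the small subunit that carries the radical HU quenches, had a change of -0.04 (-0.16 to 0.08), and RRM2B, the p53-induced small subunit, one of -0.05 (-0.20 to 0.09). CDKN1A, the p53-induced inhibitor of cyclin-dependent kinases, stood at 41.003, 40.95 and 35.5 CPM without HU and at 42.1, 42.5 and 40.6 CPM with it, a change of 0.09 (-0.06 to 0.25). MDM2, the ubiquitin ligase of p53, was at -0.11 (-0.25 to 0.03), and the checkpoint kinase CHEK1 at -0.08 (-0.22 to 0.05). For each of these genes the interval lay well inside a change of 1.5-fold.

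Among the immediate early genes of the fixed set, FOS stood at 20.1, 20.9 and 19.6 CPM without HU and at 29.9, 20.7 and 21.6 CPM with it, so that HU replicate 1 alone was clearly higher (log2 fold change 0.25, 95% interval -0.01 to 0.51, unadjusted p = 0.0558). Without HU replicate 1 the change was 0.07. EGR1 was at 0.22 (-0.26 to 0.69), and MYC at 0.00 (-0.13 to 0.14). TFRC, the transferrin receptor, whose mRNA is held by iron-responsive factors, was at -0.05 (-0.21 to 0.11), and SLBP, which binds histone mRNA, at -0.04 (-0.16 to 0.08). LIG4, the ligase of end joining, stood at 25.5, 26.4 and 32.3 CPM against 21.9, 23.8 and 25.9 CPM, a change of -0.23 (-0.45 to -0.02, unadjusted p = 0.0325). Its change was -0.17 with GC correction (unadjusted p = 0.0522) and -0.12 without NT replicate 3 (unadjusted p = 0.173). RTEL1, a helicase, lay at 0.46 to 0.99 CPM in all 6 libraries, too low to bound its change more tightly than -0.77 to 0.68.

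**Figure D2:**
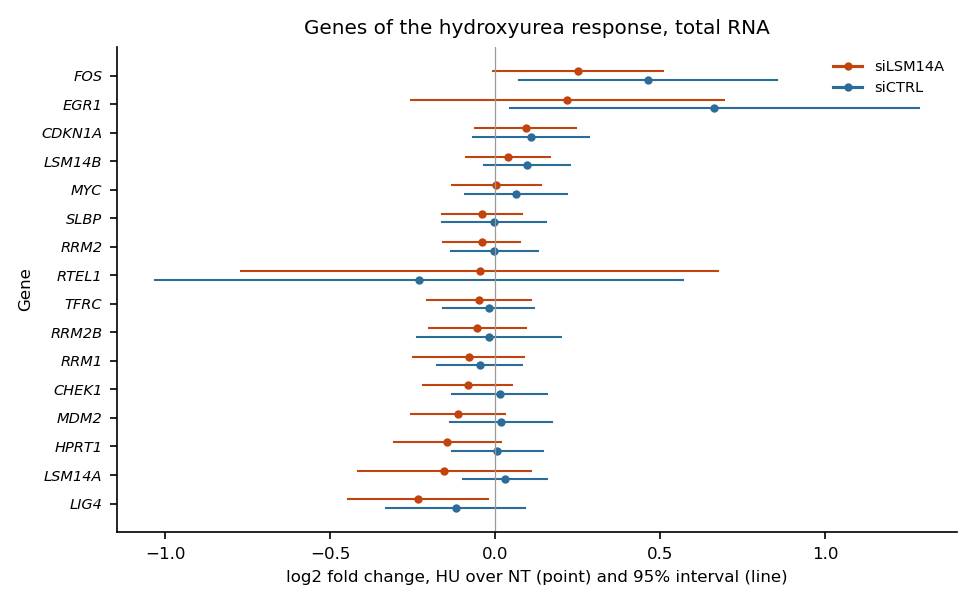
Log2 fold change of HU over NT (horizontal axis, points) with its 95% interval (lines) for 16 genes in siLSM14A and siCTRL total RNA. In siLSM14A cells the interval of each gene crosses 0 except that of LIG4 (-0.45 to -0.02), and RTEL1 has the widest interval, -0.77 to 0.68.

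By the naming rule, the 10 genes with the smallest unadjusted p in each direction were taken. They came from genes of at least 1 CPM whose HU libraries all lay above, or all below, the NT libraries. Over all 12497 genes tested, at any level, the HU libraries lay above for 650 genes (5.2%) and below for 787 (6.3%). None of the genes named passed the adjusted test, and their small changes are described as such. The genes lower with HU were SLF1, FSD1L, RMI1, FRYL, ZNF780A, CLK4, CLK1, NAA16, RLF and MSMO1, with log2 fold changes from -0.70 to -0.29. Their exon GC content was low, from 34.8% for FSD1L to 39.8% for RLF, against a median of 47.6% over all genes tested. SLF1, which brings the SMC5/6 complex to damaged DNA, stood at 18.5, 18.5 and 19.1 CPM without HU and at 13.2, 15.1 and 13.7 CPM with it (-0.42, SE 0.08, unadjusted p = 0.000276). RMI1, a subunit of the BLM dissolvase that resolves recombination intermediates, stood at 21.8, 22.2 and 22.9 CPM against 15.6, 17.1 and 18.3 CPM (-0.39, SE 0.08). FSD1L was at 4.33, 4.25 and 4.35 CPM against 2.604, 2.94 and 2.49 CPM (-0.69, SE 0.14). In these 3 genes NT replicate 3 lay with the other NT libraries. With GC correction SLF1 was at -0.30, RMI1 at -0.28 and FSD1L at -0.57.

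CLK4, a second kinase of SR proteins, stood at 10.02, 11.002 and 8.03 CPM against 6.73, 5.95 and 6.83 CPM (-0.57, SE 0.13, unadjusted p = 0.000874), and without NT replicate 3 its change was -0.69 at an adjusted p of 0.0611. The other 2 members of this kinase family, looked at because CLK1 and CLK4 were both named, did not share this: CLK2 was at -0.08 (-0.22 to 0.06) and CLK3 at 0.01 (-0.16 to 0.19). MSMO1, an enzyme of cholesterol synthesis, stood at 51.8, 52.1 and 60.5 CPM against 43.5, 44.01 and 46.5 CPM (-0.30, SE 0.07).

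The genes higher with HU were ARL2, ATP5MF, CTXN1, PARP10, COG4, ATP5PO, TUBA3C, FIBP, ADAM11 and LRP1, with log2 fold changes from 0.19 to 0.50. Apart from ATP5PO (44.4%), their exon GC was above the median of 47.6%, up to 72.8% for CTXN1. With GC correction ARL2 was at 0.25, PARP10 at 0.18 and LRP1 at 0.14, while ATP5PO was at 0.26. ARL2, a small GTPase of tubulin folding, stood at 22.96, 21.4 and 18.9 CPM without HU and at 26.1, 26.4 and 26.02 CPM with it (0.31, SE 0.08, unadjusted p = 0.00215). ATP5MF and ATP5PO, subunits of the mitochondrial ATP synthase, had changes of 0.26 and 0.24. TUBA3C, an alpha-tubulin with near-identical copies among which reads may be split, stood at 2.44, 2.47 and 2.44 CPM against 3.62, 3.38 and 3.43 CPM (0.50, SE 0.15). Over 340 values of these 20 genes under the alternatives of processing, none changed sign (they were picked for a small p). In siCTRL cells, however, ARL2 was at 0.03, SLF1 at -0.08 and FSD1L at -0.14. LRP1 (-0.16), ADAM11 (-0.12) and FIBP (-0.01) had the opposite sign there, and the rest of the 20 kept theirs.

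**Figure D3:**
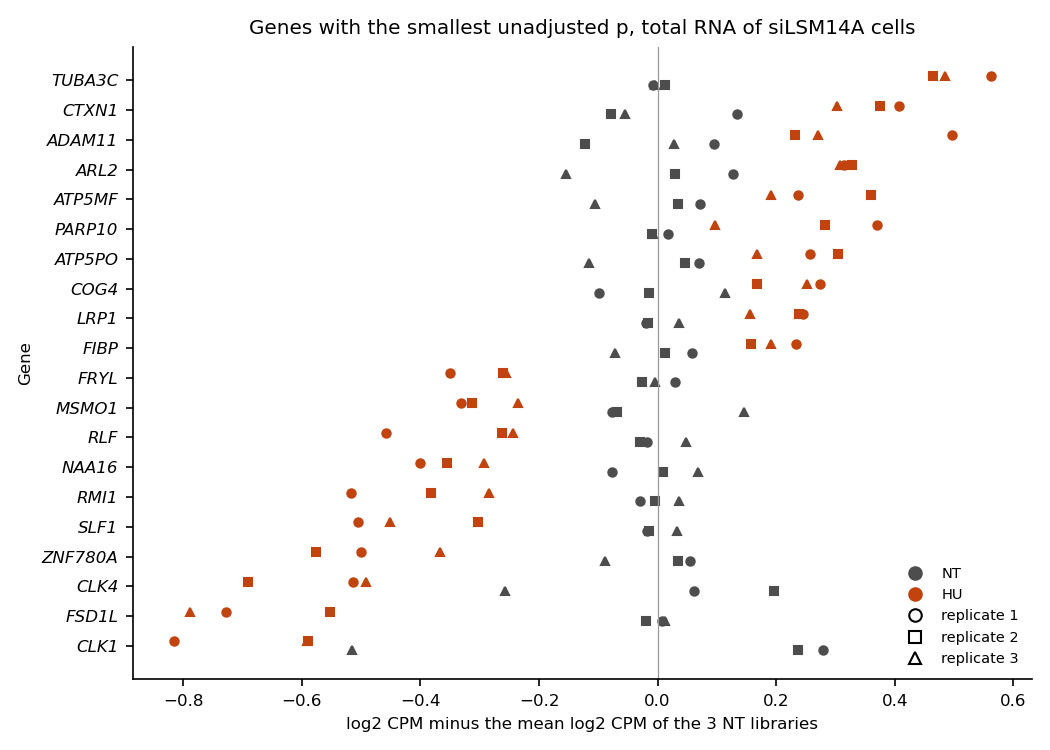
Log2 CPM in each siLSM14A total RNA library minus the mean of the 3 NT libraries (horizontal axis) for the 20 genes with the smallest unadjusted p by direction, points shaped by replicate number. The HU libraries of each gene lie on 1 side of its NT libraries by the naming rule, and for CLK1 NT replicate 3 lies next to them, at 27.5 CPM against 22.3 to 26.1 CPM with HU.

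Genes were then grouped by role into 28 lists, in which no member passed the adjusted test. In the list of ribonucleotide reductase and nucleotide supply, 1 of 20 genes tested was higher unadjusted (NME1, a nucleoside diphosphate kinase, 0.17) and 1 lower (DCK, deoxycytidine kinase, -0.26), with a median log2 fold change of 0.01, beside 0.00 over all genes tested. Of 25 p53 targets, XPC was higher (0.17) and CCNG1 lower (-0.22), with a median of 0.01. The ATR and CHEK1 list had 1 of 22 genes lower, ATR itself, at 39.3, 37.3 and 41.2 CPM without HU and 31.96, 36.9 and 34.7 CPM with it (-0.19), and the median was -0.06. The list of ATM and CHEK2 had 3 of 12 lower, the kinase ATM (-0.21), RAD50 of the end-processing complex (-0.17) and RIF1, which steers end joining (-0.22), beside 3.59% lower over all genes. With GC correction RIF1 was the 1 left, and without NT replicate 3 ATM was at -0.08 and RAD50 at -0.09.

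The counts that follow stand beside 3.59% of all genes lower and 1.61% higher. For DNA replication, 3 of 40 genes of licensing and the fork were lower, the origin recognition subunits ORC3, ORC4 and ORC5 (-0.20 to -0.18), and CDC45, of the replicative helicase, was higher (0.15). In homologous recombination and the Fanconi anemia pathway 4 of 34 were lower, led by the resolvase GEN1 (-0.33) and the helicase BLM (-0.22). Both G1/S genes called lower were pocket proteins, RB1 (-0.23) and RBL1 (-0.21), among 18 tested, and in the G2/M list CKAP2 (-0.15) and TTK (-0.23) were lower among 36. The lower genes named here shared a low exon GC content, from 36.1% for ATR to 41.8% for BLM, against a median of 47.6% over all genes tested. With GC corrected, ATR was at -0.07, RIF1 at -0.13 and RB1 at -0.13, and of the genes in this and the preceding paragraph only DCK, RIF1, GEN1, BLM, NME1 and XPC kept an unadjusted p under 0.05. Over all lists but the zinc finger genes, 43 members were called unadjusted, 9 of them ribosomal protein genes. Over all 12497 genes tested the share called was 5.2%, and the number of separate list members tested is not given. Of the 43, 17 were called with GC correction, 18 without NT replicate 3 and 4 whichever library was left out. Without NT replicate 3, ORC4 and ORC5 were at -0.11, GEN1 at -0.20, RBL1 at -0.11, TTK at -0.14 and CCNG1 at -0.13, each no longer called. The same held for DCK, at -0.19, ATR, at -0.15, and CKAP2, at -0.10.

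Stress pathways gave few calls in either direction in siLSM14A cells. With all 6 libraries, none of 21 NF-kB targets, of 22 interferon-stimulated genes or of 19 decay factors of labile mRNAs had an unadjusted p under 0.05. In siCTRL cells 5 of the 21 NF-kB targets were higher, beside 0.792% of all genes, and none was lower. Their median was 0.10 there, against 0.06 in siLSM14A cells. In the interaction test 1 of the 21 had an unadjusted p under 0.05, with the lower effect in siLSM14A cells. Without NT replicate 3, NFKBIA was at 0.46 in siLSM14A cells (unadjusted p = 5.01e-05, adjusted p = 0.0785, edgeR). CXCL8 was at -0.13 there (unadjusted p = 0.469). A count over the 21 without that library is not given. Of 36 immediate early genes, EGR2 was higher (0.91, at 0.24 to 0.85 CPM) and TRIB1, a pseudokinase, lower (-0.15). In siCTRL cells 6 of the 36 were higher, beside 0.792% of all genes, and none was lower, with a list median of 0.11, against 0.04 in siLSM14A cells. No gene of the list differed between the siRNAs at an unadjusted p under 0.05 in the interaction test. Without NT replicate 3, CCN1, CCN2 and JUN of this list passed the adjusted test in siLSM14A cells. FOS, at 0.23, and EGR1, at 0.00, did not. The siLSM14A count of immediate early genes thus depended on NT replicate 3. Among 26 genes of the integrated stress response PPP1R15A was higher (0.21), in the unfolded protein response DNAJB9, an ER chaperone, was lower (-0.24, of 17), and in heat shock HSPA4L and CHORDC1 were lower (of 21). FTL, the light chain of ferritin, was higher (0.17) and stood in both the NRF2 and the iron lists. Of 30 genes of P-body repression and decapping, the partners of LSM14A, only DCP2, the decapping enzyme, was called, at -0.16. With GC correction DCP2 was at -0.07 (unadjusted p = 0.281), DNAJB9 at -0.14, HSPA4L at -0.10, CHORDC1 at -0.02, FTL at 0.11 and PPP1R15A at 0.14, none of them called, and EGR2 and TRIB1 kept their calls. FTL was at 0.09 without NT replicate 3.

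Of 35 replication-dependent histone genes matched in the table, 15 passed the filter and none was called, with a median of -0.03. Their mRNAs lack poly(A) tails and the libraries were made from poly(A)-selected RNA, so these values are not the whole pool of histone mRNA. Among 13 mitochondrially encoded mRNAs, MT-ND4L was lower (-0.31), at 1273, 1332 and 1280 CPM without HU and 782, 1230 and 1121 CPM with it, of which HU replicate 1 was the lowest. Without HU replicate 1 its change was -0.14 and no longer called (unadjusted p = 0.0591). The melanocytic list held 1 call, the lineage factor MITF, at 141, 140 and 147 CPM against 134, 129 and 130 CPM (-0.13, and -0.06 with GC correction, where it was not called), and the list of dedifferentiated melanoma held none of 14. The summed level of the 13 matched markers of other cell types was 91.8 to 113 CPM in NT and 101 to 111 CPM in HU libraries, so the groups overlapped.

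In 2 large lists the small changes leaned to 1 side. Of 84 cytosolic ribosomal protein genes, 9 (10.7%) were higher unadjusted and none lower, beside 1.61% and 3.59% over all genes. A positive change was seen in 78, beside 6317 of all 12497 genes, and the median was 0.09. RPL17 stood at 16.9, 16.9 and 14.4 CPM without HU and at 19.04, 18.99 and 19.5 CPM with it, and FAU at 107, 98.3 and 92.3 CPM against 117, 122.8 and 105 CPM. The summed level of the list was lowest in NT replicate 3, at 54681 CPM against 59970 to 63142 CPM in the other 5 libraries, and without that library the median was 0.04. Of the 9 genes called, only FAU, RPL17 and RPL26 kept an unadjusted p under 0.05 without NT replicate 3. With GC correction of all 6 libraries the median was 0.07, with 12 higher and none lower. In siCTRL cells the median was 0.02, and in the polysomal RNA of siLSM14A cells -0.22. Many ribosomal protein genes have processed pseudogenes with which they can share reads.

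Of 383 numbered zinc finger genes, most of which encode KRAB repressors, 35 (9.14%) were lower unadjusted and 1 higher, beside 3.59% and 1.61% over all genes. A positive change was seen in 108, beside 6317 of all 12497 genes, and the median was -0.07. ZNF791 stood at 17.7, 20.3 and 20.2 CPM without HU and at 14.1, 16.1 and 15.1 CPM with it (-0.36, SE 0.09), ZNF292 at 23.1, 24.4 and 24.4 CPM against 18.9, 20.9 and 17.997 CPM (-0.32), and ZNF721 at 17.2, 17.6 and 20.7 CPM against 13.6, 14.5 and 14.9 CPM (-0.37). The groups of these 3 genes did not overlap. The list's median was -0.07 with the GC correction as well, with 29 lower, and it lay between -0.09 and -0.06 when each library was left out. In siCTRL cells it was -0.04, with 11 of 384 lower and 1 higher, beside 0.648% lower and 0.792% higher over all genes there. Several of these genes lie in clusters of similar copies, among which reads may be split.

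**Figure D4:**
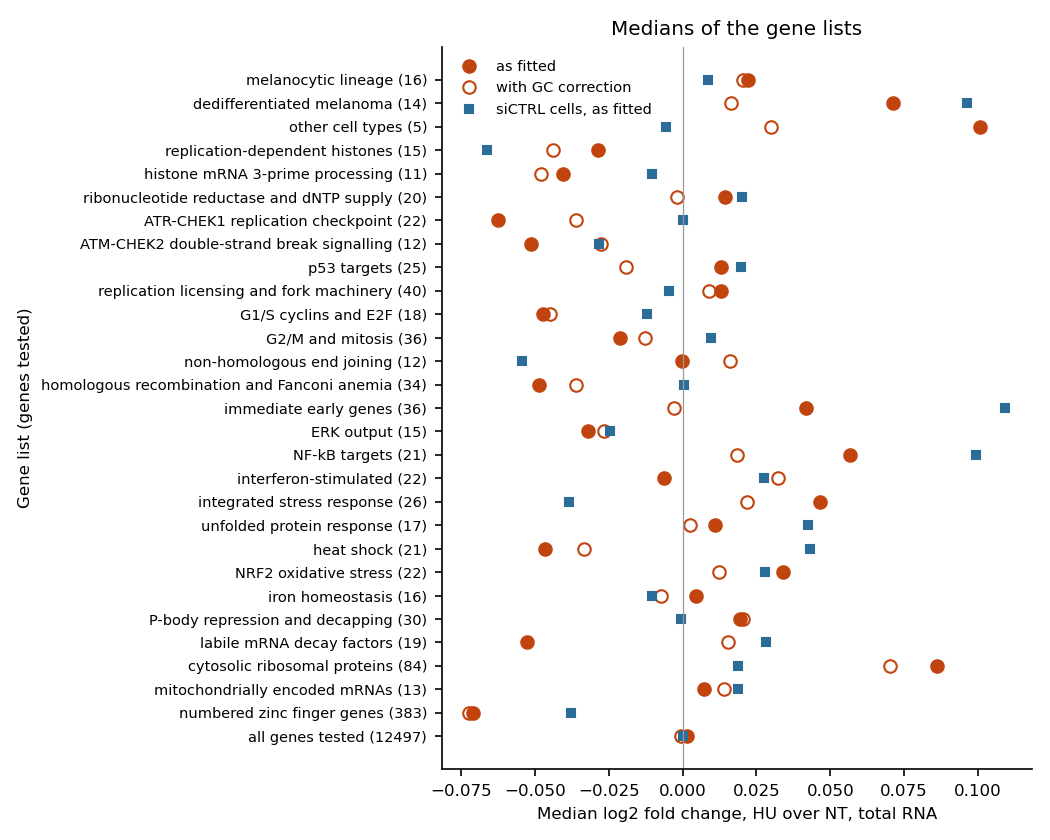
Median log2 fold change of HU over NT in total RNA (horizontal axis) for each gene list, with the number of genes tested, in siLSM14A cells as fitted (filled circles) and with GC correction (open circles), and in siCTRL cells (squares). All medians lie between -0.08 and 0.12, with the ribosomal proteins at 0.09 and the zinc finger genes at -0.07 in siLSM14A cells.

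The direction of the small differences followed exon GC content. Across 12497 genes the Spearman correlation of the log2 fold change with GC was 0.55, and it was 0.28 without NT replicate 3. Among the 1250 genes lowest in GC, of 10 groups of like size (31.02% to 38.5%), the median change was -0.10 and 191 genes (15.3%) were lower unadjusted against 4 higher, while in the group highest in GC (61.1% to 76.0%) the median was 0.07 with 3 lower and 40 higher. The tilt differed between libraries of the same group. The highest group stood above the lowest by 0.17 and 0.14 log2 units in HU replicates 1 and 2 but not in HU replicate 3 (-0.05), and the values were 0.03, -0.04 and -0.26 in the NT libraries, so the groups overlapped. With the trend removed in each library, 401 genes (3.21%) had an unadjusted p under 0.05, 165 (1.32%) higher and 236 (1.89%) lower. In siCTRL cells the correlation was -0.01, and it ran from -0.25 without HU replicate 1 to 0.21 without HU replicate 3. The part of base composition in the differences of single genes was not tested beyond this correction.

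**Figure D5:**
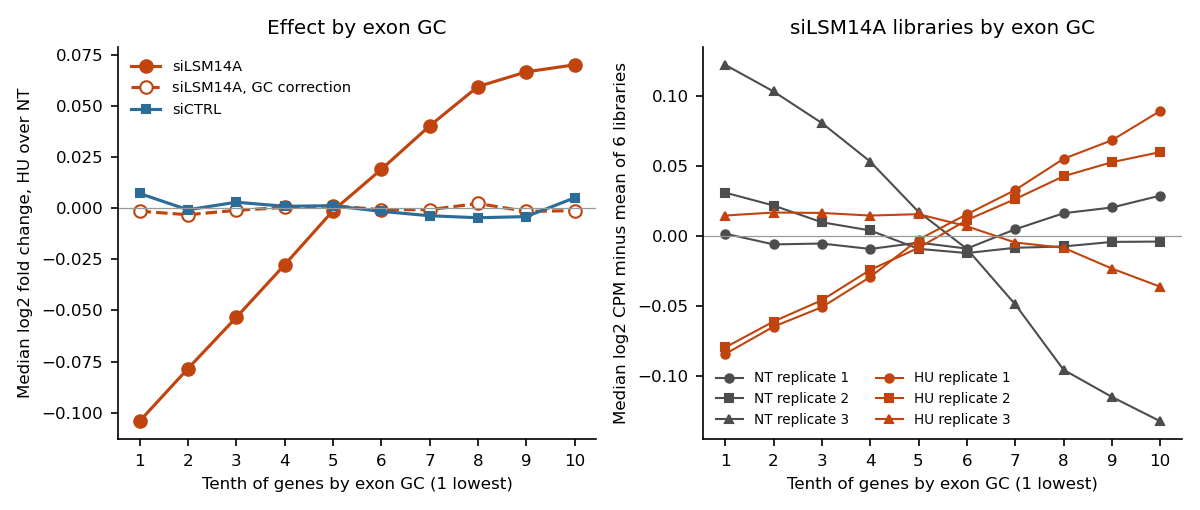
Left, the median log2 fold change of HU over NT in 10 groups of genes ordered by exon GC, in siLSM14A cells as fitted, with GC correction, and in siCTRL cells. Right, the median deviation of each siLSM14A library from the mean of the 6 in log2 CPM; NT replicate 3 runs from 0.12 in the lowest group to -0.13 in the highest, and HU replicate 1 from -0.08 to 0.09.

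The interaction test asked whether the effect of HU differed with LSM14A depletion. No gene passed an adjusted p of 0.05 (smallest 0.9995), and 367 of 12666 (2.9%) had an unadjusted p under 0.05, of which 130 (1.03%) had the higher effect in siLSM14A cells and 237 (1.87%) the lower. Over 12413 genes tested with both siRNAs, the 2 sets of log2 fold changes correlated at 0.06 (Pearson) and 0.05 (Spearman), across genes. The smallest p belonged to CXCL11, an interferon-induced chemokine, with 15, 18 and 19 counts in the siLSM14A NT libraries and 3, 0 and 2 counts in the HU libraries. The groups did not overlap, and the change within siLSM14A cells was -3.04 (SE 0.58, unadjusted p = 0.000164, adjusted p = 0.855), a fitted value on few reads. In siCTRL cells CXCL11 was too low to be tested, at 0.08 to 0.23 CPM without HU and 0.23 to 0.45 CPM with it, and the list of interferon-stimulated genes had a median of -0.01 in siLSM14A cells.

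Further genes with small interaction p-values were named by the rule. UTP23, a ribosome biogenesis factor, stood at 37.2, 38.4 and 35.6 CPM in siLSM14A NT libraries and at 29.7, 30.5 and 33.3 CPM with HU (-0.25), while its change in siCTRL cells was 0.09 (unadjusted p of the difference 0.00255). SS18L1, a subunit of neuronal chromatin remodelling complexes, was at -0.25 against 0.15, and TMEM170B at -0.18 against 0.24. In the other direction, ABCC10, a drug transporter, stood at 28.8, 30.8 and 29.8 CPM against 36.5, 33.98 and 32.6 CPM (0.20, and -0.10 in siCTRL cells), C19orf73 was at 0.66 against -0.52 and LRRC4B at 0.70 against -0.84. ISM2, with 6 to 10 counts a library, was too low to be tested within siLSM14A cells.

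In the polysomal RNA of the same siLSM14A cultures, no gene passed an adjusted p of 0.05 and 107 of 12290 (0.871%) had an unadjusted p under 0.05, 83 (0.675%) higher and 24 (0.195%) lower. The log2 fold changes of the 2 fractions correlated at -0.002 over 12204 genes. The 6 genes had the sign of total RNA in polysomal RNA, with CCN1 at 0.29, CCN2 at 0.23, JUN at 0.51, DEPP1 at 0.47, CLK1 at -0.32 and DDIT4 at -0.33, all at unadjusted p above 0.05. CCN1 stood at 178, 60.0 and 60.3 CPM in the polysomal NT libraries and at 135, 119 and 111 CPM with HU, and DDIT4 at 205, 486 and 534 CPM against 292, 371 and 315 CPM. In polysomal RNA the untreated library apart from the other 2 was thus the one numbered 1, and in total RNA the one numbered 3.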

How the data were processed

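RNA from cells that the labels call A2058 (the study's text also gives A375 for the HU comparison) was sequenced after poly(A) selection, as paired-end reads of 100 bases. Per the labels and methods, the authors trimmed the reads, aligned them with STAR 2.6.1a to hg19 and counted reads on Gencode 34 genes, and the deposited values are raw counts per gene and library. All 24 columns were matched to samples by name, and 0 went unused. Gene names, types, coordinates and exon GC came from Gencode on GRCh37, the hg19 build, in which 19086 of 20345 IDs were protein-coding, and 551 of another type and 708 unmatched IDs stayed out.

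Counts of protein-coding genes were filtered with filterByExpr (minimum count 10, minimum total 15), scaled by TMM and tested with edgeR 4.0.16 (glmQLFTest) in R 4.3.3, with Benjamini-Hochberg adjustment over all genes tested. The HU effect was fitted on the 6 libraries of each siRNA or fraction, and the difference between siRNAs as an interaction over 12. Standard errors are the log2 fold change over the root of F. GC correction used a loess curve of span 0.3 in each library. DESeq2 1.42.0 was an alternative. The scripts were tested on simulated data. Promoter windows came from RefSeq (GRCh38.p14).

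Named genes were the 10 with the smallest unadjusted p in each direction at a mean of at least 1 CPM with groups that did not overlap, up to 3 called genes a list and direction, 16 fixed genes, and 4 a direction in the interaction. The members, lists and tests were chosen with earlier results of these data known. Same-numbered libraries were taken as paired where every correlation of their deviations was over 0.1, which held for siCTRL total RNA. Libraries are labelled as separate replicates, and p-values measure the spread between them. CPM values quoted for LSM14A, for the 6 genes that passed without NT replicate 3, for SOCS3, NFKBIA and PPP1R15A, and for siCTRL and polysomal libraries were scaled over the 12 libraries of a fraction, and other CPM values over the 6.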

Additional observations from a re-analysis of the deposited data

How the results depend on the processing

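With 9 alternatives besides left-out libraries, the count of genes at an adjusted p under 0.05 for HU in siLSM14A total RNA stayed at 0, and with each of 6 libraries left out in turn it was 0 to 6, the 6 without NT replicate 3. Chosen after seeing the data, leaving out that library gave 5 genes with GC correction (the 6 except JUN) and 7 with the replicate block (those 5, PDK4 and AMOTL2). The 650 unadjusted calls became 401 with GC correction, 1297 with the replicate block (1625 with the block and without NT replicate 3) and 317 to 1026 with a library left out (317 without HU replicate 1, 363 without HU replicate 2, 1026 without HU replicate 3). By the rule used, these libraries were not taken as paired by number, since same-numbered deviations correlated at -0.15, 0.44 and 0.07. HU replicate 1 correlated best with NT replicate 3 (0.29). NT replicate 3 correlated best with siCTRL NT replicate 1 (0.63), and NT replicate 1 with siCTRL NT replicate 3 (0.28). Whether the untreated numbers 1 and 3 were exchanged was not tested, and the block used the numbers as labelled. For siCTRL cells the adjusted count of 0 became 1 in DESeq2 (SOCS3), 15 with the replicate block, 26 with the block and GC correction, and 0 to 6 with a library left out. For polysomal RNA it was 0 to 1 with a library left out (1 without NT replicate 1), and for the interaction it was 0 throughout, also without siLSM14A NT replicate 3 and siCTRL NT replicate 1 together. Of 476 list medians under alternatives, 41 moved by more than the spread between replicates, and of 1019 values of the 60 genes named by p, which were picked for it, none changed sign. Among the fixed genes 22 values of 8 genes had the opposite sign, all in genes whose main interval crossed 0 (LSM14B, RRM1, RRM2B, CDKN1A, RTEL1, EGR1, MYC and TFRC), such as RRM1 at 0.02 without NT replicate 3. Why the counts changed was not tested. Depth limits genes under 1 CPM, such as RTEL1, and intervals cover the spread between 3 libraries a group.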
